A study of Mus musculus with 6 samples.

Results

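The peaks described here lie in 5 windows of the mouse genome (build mm9), 1 around each of 5 transcription factor genes of the mesoderm and endoderm: T (brachyury, chr17:8610000-8650000), Sox17 (chr1:4470000-4500000), Gata6 (chr18:11030000-11095000), Gata4 (chr14:63790000-63890000) and Myod1 (chr7:53615000-53650000). Every peak that overlapped a window was taken, which gave 30 of the 43384 peaks in the 3 deposited lists. Of these, 15 of 15187 came from H3K27me3 at 30 h of differentiation, 10 of 9470 from H3K27me3 in proliferating cultures and 5 of 18727 from H3K4me3 in proliferating cultures. The windows are fixed coordinates and hold more than the named gene alone, so a value below belongs to a window and not to a promoter.

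ChIP-seq, which sequences the DNA that an antibody to a histone mark pulls down, was performed on monolayer cultures of neural stem cells (NSCs) from the subventricular zone (SVZ) of C57BL/6 mice, at passages 5 to 7. H3K27me3 was measured 30 h after the start of differentiation (the library labelled N6) and in proliferating cultures (N5), with the same antibody. H3K4me3 was measured in proliferating cultures that carry the name N5 as well but are also labelled ventral, which the H3K27me3 culture is not. Each group is 1 library. No treatment, transgene or deletion is named for these libraries. The sources used here do not give what N5 and N6 stand for or which cells had formed by 30 h. The label of SVZ NSCs was not checked against marker genes, since no mm9 gene positions were used. A peak that comes from all cells of a culture and a peak that comes from some of them cannot be told apart.

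H3K27me3 is placed by the Polycomb repressive complex PRC2, whose catalytic subunit is EZH2, and is found at silenced developmental genes, often over broad domains. H3K4me3 marks the start sites of genes that are active or poised for activity, and a start site that carries both marks is called bivalent. The 5 factors are taken here for their roles in mesoderm and endoderm, and any role in neural lineages was not considered. Sox17 and Gata6 are needed for endoderm, Gata4 and Gata6 for the heart and for endoderm of the gut, T for mesoderm of the primitive streak and for the notochord, and Myod1 for skeletal muscle. The question here is how the loci of these regulators were marked in these cultures.

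The sequence tables used here hold the promoter of 1 of the 5 genes, T, from RefSeq in the build GRCm38.p6. It is shown as the only one of these promoters at hand. The T window held an H3K4me3 peak inside an H3K27me3 peak, as did the windows of Gata6 and Gata4. The 250 bases before the start of T, at chr17:8434173-8434422 on the plus strand of GRCm38.p6, read as follows, with capitals for the GC box GGGCGG and its reverse complement.
T: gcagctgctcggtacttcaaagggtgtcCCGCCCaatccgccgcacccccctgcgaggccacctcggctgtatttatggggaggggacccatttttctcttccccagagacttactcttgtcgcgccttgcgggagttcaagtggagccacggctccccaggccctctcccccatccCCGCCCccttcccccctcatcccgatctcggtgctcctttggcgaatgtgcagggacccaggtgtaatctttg
The T promoter had a GC content of 62.8% and 14 CpG dinucleotides, against medians of 52.4% and 6 over the same stretch of 32851 promoters in the table. It held 2 GC boxes, and 32.7% of all these promoters held at least 1 on either strand. TATAAA, searched on both strands, was not among its letters, and 12.4% of all promoters held it. In the annotation of this build the start of T overlaps a predicted gene, LOC115486424. Where these bases fall in mm9 was not determined, so they are not set against the peak coordinates.

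All 5 windows held H3K27me3, both at 30 h and in proliferating cultures. Together they covered 270 kb, of which H3K27me3 peaks took 58.5% at 30 h (158.0 kb) and 36.1% in proliferating cultures (97.5 kb). Of all placed chromosomes up to their last peak, these lists covered 2.75% and 1.08%. H3K4me3 took 3.02% of the windows (8.17 kb), against 1.49% of the placed chromosomes, and was found in 3 windows, those of T, Gata6 and Gata4. A single peak of the Gata4 window, outside H3K27me3, made up 3.26 kb of this length. The share inside H3K27me3 peaks at 30 h ran from 40.4% in the Gata6 window to 77.7% in the Sox17 window, and in proliferating cultures from 17.0% at Myod1 to 47.8% at Gata4. In each window the share was higher at 30 h. With 1 library per group, no difference between the lists was tested, and the lists hold no read counts from which depth could be read.

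**Figure D1:**
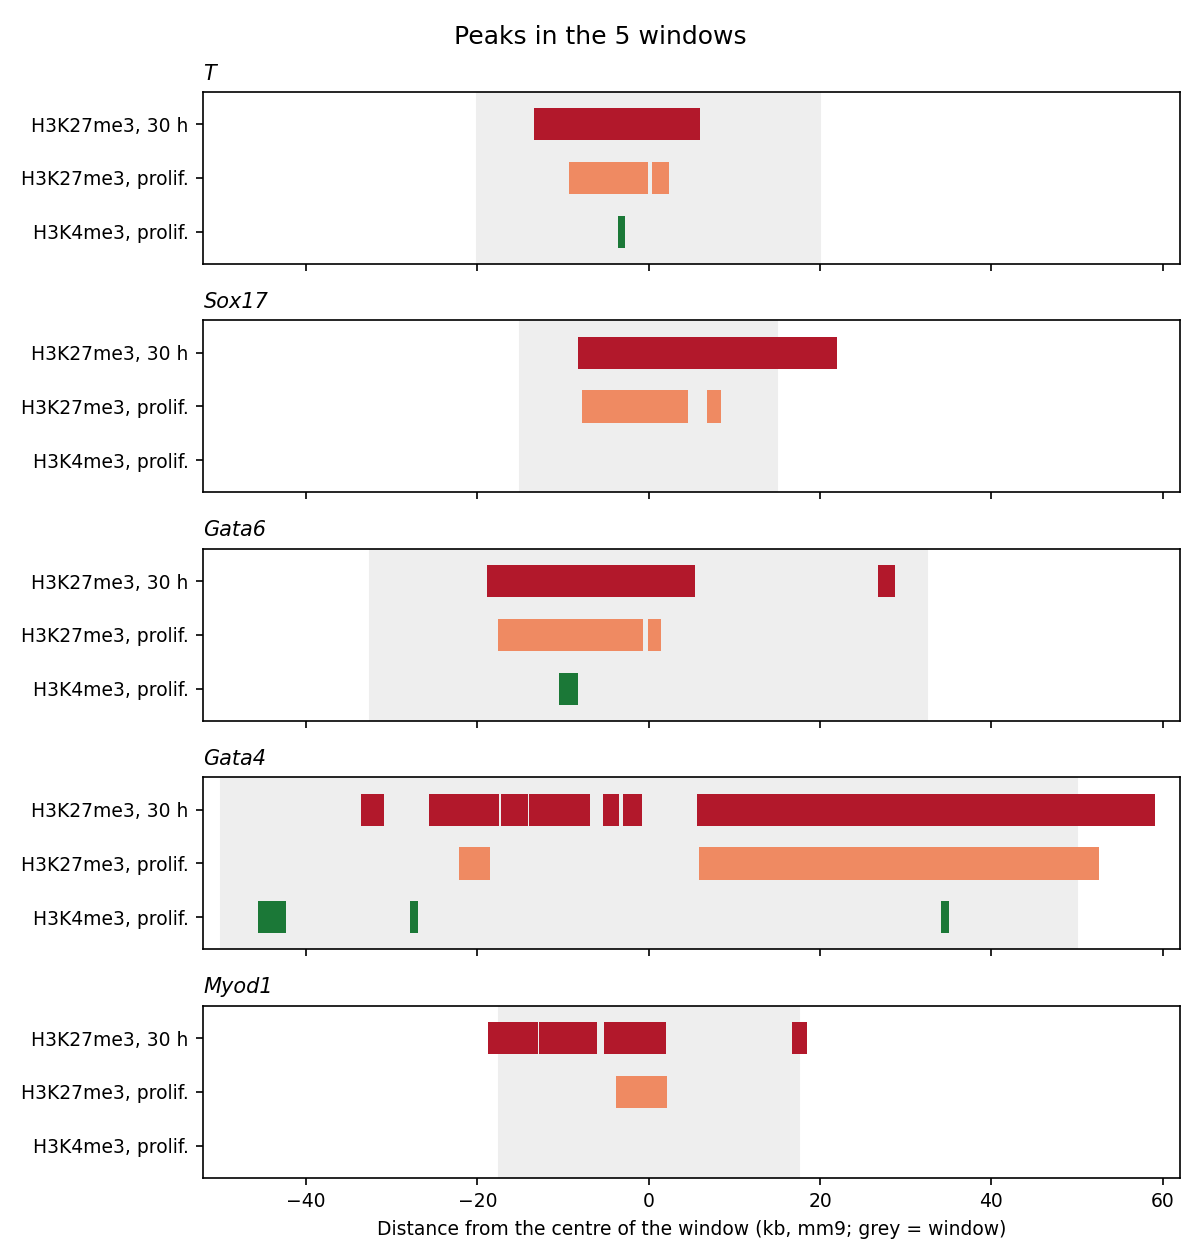
Peaks of the 3 lists (rows) in each window (panels), drawn to scale by distance from the centre of the window (x axis, kb), with the window in grey and peaks drawn to their full length. In every window the proliferating H3K27me3 peaks lie under 30 h peaks, but for 136 bp at Myod1, and H3K4me3 peaks are seen at T, Gata6 and Gata4, where 3 of the 5 lie within H3K27me3.

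**Figure D2:**
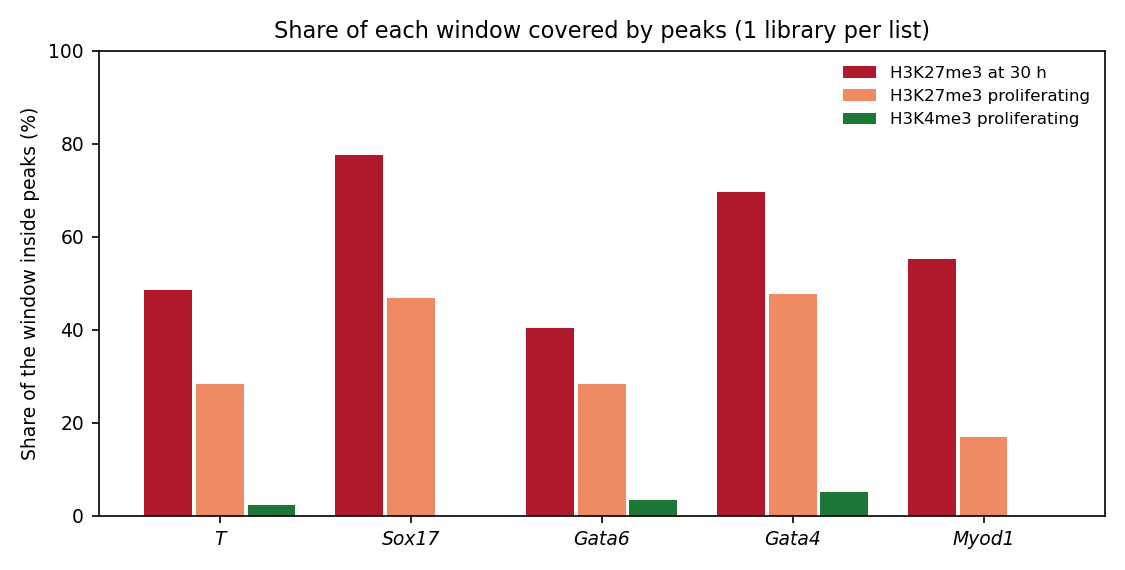
Share of each window inside peaks (y axis, percent) for the 3 lists, 1 library each, so that no error can be drawn. The 30 h bar is the tallest in each window, and the Myod1 window has the lowest proliferating H3K27me3 bar, 17.0%.

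The window of the endoderm regulator Sox17 held a broad domain, with no further 30 h peak for 808.4 kb before the window and 279.3 kb after it. At 30 h a single H3K27me3 peak, chr1:4476696-4507027, ran for 30.3 kb and past the end of the window, with a score of 3100. In the proliferating list the same stretch held a peak of 12.4 kb, chr1:4477210-4489572, also with a score of 3100, and after a gap of 2.21 kb a peak of 1.68 kb with a score of 50.37, close to the lowest score of that list, 50.01. The score is the authors' value from MACS for the strength of a peak. Both H3K27me3 lists contain a value of 3100 many times over, in 3.30% of the 30 h peaks and 2.27% of the proliferating ones, so peaks at 3100 cannot be ranked among themselves by score. The 30 h peak was the 127th widest of its list and the proliferating peak the 223rd widest of its own. No H3K4me3 peak lay in the window, and the nearest ones ended 807.4 kb before it and began 61.2 kb after it.

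The window of Gata6, a zinc finger factor of endoderm and heart, held an H3K27me3 domain with H3K4me3 inside it. The 30 h peak chr18:11043639-11067862 was 24.2 kb wide with a score of 3100. It spanned a proliferating peak of 16.9 kb, chr18:11044947-11061851, with a score of 3100, and a weaker one of 1.49 kb with a score of 110.7, which were 0.569 kb apart. A second 30 h peak of 2.04 kb lay 21.4 kb further along. It had a score of 67.5, with only 14.7% of the 30 h list below it, and no proliferating peak under it. The H3K4me3 peak, chr18:11052021-11054184, was 2.16 kb wide with a score of 665.3, the second highest of the 5 H3K4me3 peaks, and lay whole within H3K27me3 of both lists. H3K27me3 ran on for 8.38 kb before it and 13.7 kb after it at 30 h, and for 7.07 kb and 7.67 kb in proliferating cultures.

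The window of Gata4, a close relative of Gata6 that acts in heart and endoderm, had the widest H3K27me3 of the 5. Its main 30 h peak, chr14:63845601-63899069, was 53.5 kb wide and the 18th widest of 15187. In proliferating cultures the main peak, chr14:63851409-63892619, was 41.2 kb wide and the 14th widest of 9470. Both had a score of 3100 and both ran past the end of the window. A proliferating peak of 5.49 kb, with a score of 385.3, ended 27 bp before the main one, and the 30 h peak spanned both.

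On the low-coordinate side of the Gata4 window the lists differed more. The proliferating list had 1 peak there, chr14:63817810-63821505, with a width of 3.70 kb and a score of 243.1, followed by a stretch of 24.4 kb with no peak. At 30 h, 64.5% of that stretch (15.7 kb) was inside H3K27me3. Of the 7 peaks in this window at 30 h, 5 had no proliferating peak under them, and their scores were 91.53, 193.5, 388.3, 55.95 and 98.56. These 5 peaks were weaker than the main one, and the strongest of them lay in the fourth of 5 equal score groups of the 30 h list, counted from the weakest. In that group 36.3% of all 30 h peaks overlapped a proliferating peak, so a 30 h peak of this strength without one was common.

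The Gata4 window held 3 of the 5 H3K4me3 peaks, of unlike strength. The strongest, chr14:63794424-63797679, had a score of 3100, which 44.9% of the H3K4me3 list shares, and a width of 3.26 kb, and lay 8.76 kb from the nearest 30 h H3K27me3 peak and 20.1 kb from the nearest proliferating one. A weaker one, chr14:63812155-63813012, with a score of 168.4, lay 1.33 kb from H3K27me3 at 30 h and 4.80 kb from it in proliferating cultures. In the RefSeq annotation of GRCm38.p6, Neil2, a DNA repair glycosylase gene, is the next protein-coding gene on this side of Gata4. Whether these peaks belong to Gata4 or to a neighbour was not determined. The third, chr14:63874096-63875104, was 1.01 kb wide with a score of 64.3, and only 3.69% of the H3K4me3 list scored lower. It lay within the main H3K27me3 peak, 28.5 kb and 24.0 kb from its edges at 30 h and 22.7 kb and 17.5 kb from them in proliferating cultures.

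The window of T, the T-box factor of early mesoderm, held a narrower domain with a small H3K4me3 peak. At 30 h the peak chr17:8616546-8635930 was 19.4 kb wide with a score of 3100. In proliferating cultures 2 peaks lay under it, of 9.30 kb (chr17:8620660-8629955, score 2739.87) and 2.02 kb (chr17:8630355-8632379, score 88.37), with 400 bp between them. The H3K4me3 peak, chr17:8626366-8627248, was 882 bp wide with a score of 220.1, above 19.2% of its list. It lay whole within H3K27me3 of both lists, near the middle of the 30 h peak, with 9.82 kb before it and 8.68 kb after it.

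The window of Myod1, the bHLH factor of skeletal muscle, had the weakest H3K27me3 of the 5 in both lists by its highest score. It held 1 proliferating peak, chr7:53628697-53634652, with a width of 5.96 kb and a score of 923.8. At 30 h the peak over it, chr7:53627294-53634516, was 7.22 kb wide with a score of 1985. Another 2 peaks at 30 h, of 6.78 kb (score 691.3) and 5.85 kb (score 516.9), continued it on the low-coordinate side with gaps of 779 bp and 152 bp. Neither had a proliferating peak under it. Both were in the lower part of the strongest of 5 score groups at 30 h, with 84.8% and 80.4% of the list below them. In that group 81.5% of all peaks overlapped a proliferating peak, and in the next group 36.3% did. One more peak of 1.77 kb, with a score of 64.7, lay 14.7 kb to the other side. The Myod1 window therefore had 19.3 kb inside H3K27me3 at 30 h, against 5.96 kb in proliferating cultures, a ratio of 3.25.

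No H3K4me3 peak lay in the Myod1 window, but this depends on where the window ends. The next one, chr7:53651140-53657147, began 1.14 kb past the end and was 6.01 kb wide with a score of 3100. It began 126 bp after that 30 h peak of 1.77 kb and 16.5 kb from the nearest proliferating H3K27me3 peak. Kcnc1, a potassium channel gene of neurons, is the next protein-coding gene on this side of Myod1 in GRCm38.p6. Whether the peak belongs to it was not determined.

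**Figure D3:**
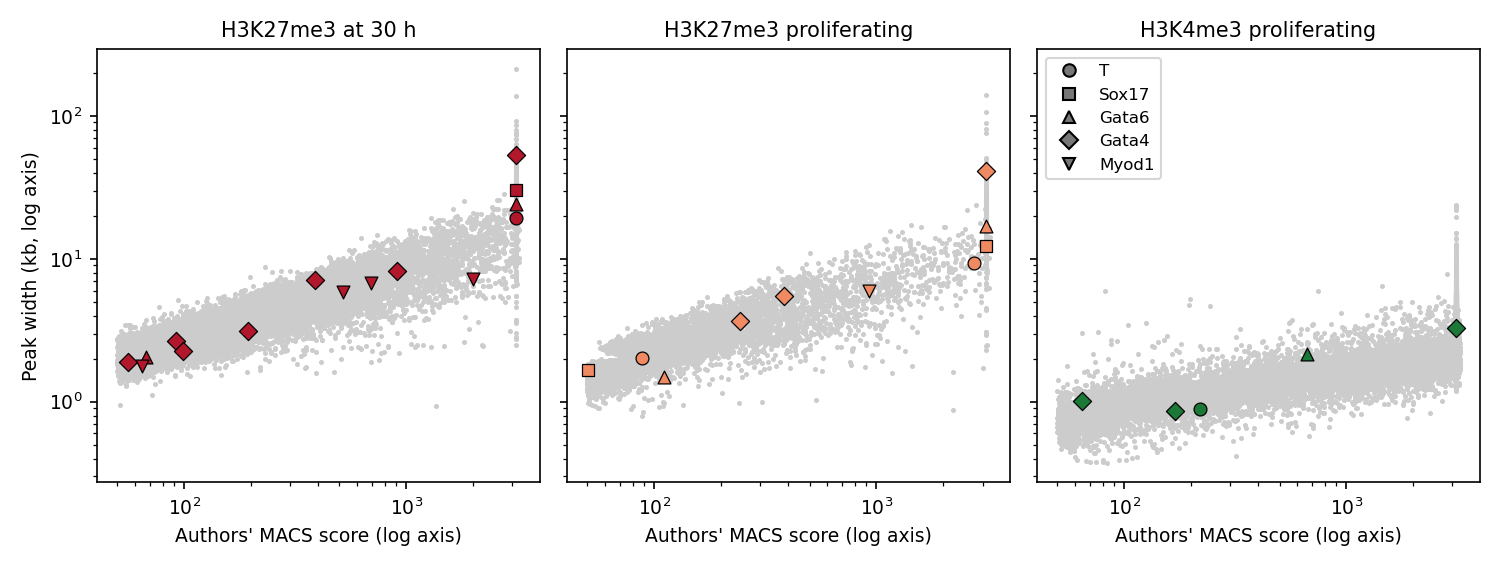
Width (y axis, kb, log axis) against the authors' score (x axis, log axis) for all peaks of each list (grey) and for the peaks of the 5 windows (symbols by gene). The widest H3K27me3 peaks of T, Sox17, Gata6 and Gata4 at 30 h stand at a score of 3100, while 4 of the 5 H3K4me3 peaks have scores of 665.3 or less.

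The peaks of the 5 windows spanned nearly the whole range of score. At 30 h, 8 of 15 H3K27me3 peaks were in the strongest of 5 score groups of their list, and in proliferating cultures 7 of 10 were. The remaining 7 peaks at 30 h and 3 in proliferating cultures were narrower than the main peak of their window, with the lowest scores at 55.95 and 50.37. Some at 30 h lay well apart from it, as at Gata6 (21.4 kb) and Myod1 (14.7 kb). Of the 5 H3K4me3 peaks, 3 were in the weakest group, 1 in the next and 1 in the strongest. The median width was 6782 bp at 30 h and 5722 bp in proliferating cultures, against 3229 bp and 2074 bp over the whole lists. For H3K4me3 it was 1008 bp, against 1970 bp over its list.

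At 30 h, H3K27me3 peaks lay over nearly all of the H3K27me3 found in proliferating cultures. All 10 proliferating peaks in the windows overlapped a 30 h peak, against 61.3% of the whole proliferating list. Of these 10, 7 were in the strongest score group, where 99.3% of all peaks did so, and the other 3 were in groups with shares of 33.3%, 53.5% and 79.9%. In length, 99.9% of the proliferating H3K27me3 in the windows was inside 30 h peaks. The sole part that was not was a stretch of 136 bp at the high-coordinate end of the Myod1 peak. In the other direction, 6 of 15 peaks at 30 h overlapped a proliferating peak, against 30.7% of the whole 30 h list. All 6 were among the 8 in the strongest score group, where 81.5% of all peaks did so. The others were in groups with shares from 6.55% to 36.3%.

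The 30 h peaks covered more of each window. The difference in length inside H3K27me3, 30 h minus proliferating, was 21.9 kb at Gata4, 13.4 kb at Myod1, 9.26 kb at Sox17, 8.07 kb at T and 7.88 kb at Gata6. As a ratio of 30 h to proliferating it was 1.46 at Gata4, 3.25 at Myod1, 1.66 at Sox17, 1.71 at T and 1.43 at Gata6, and 1.62 over the windows together. The whole 30 h list covered 2.52 times the length of the whole proliferating list, so 4 of the 5 windows lay below the ratio of the lists and Myod1 lay above it. A window cannot be covered beyond 100%, and proliferating peaks already took 47.8% at Gata4 and 46.8% at Sox17. The ratios of these windows could therefore not reach 2.52, and their place below it says nothing about them. Peaks were cut at the window ends for these window ratios, while the ratio of the lists uses whole peaks. In windows widened by 10 kb the ratio over the windows together was 1.82. When only the strongest 2196 peaks of the 30 h list were kept, so that it covered the length of the proliferating list, the difference over all windows was 29.3 kb in place of 60.5 kb. At Gata4 it was then 4.83 kb and at Myod1 1.27 kb, while at Sox17 and T it was the same as before. The ratio over the windows together was then 1.30, and each window had more length at 30 h, although the lists covered nearly equal lengths. Whether the windows lay below or above the ratio of the lists thus depended on this cut. The values also depended on the window ends. In windows widened by 10 kb the difference was 16.3 kb at Sox17 and 14.4 kb at T. In windows narrowed by 5 kb it was 4.26 kb at Sox17 and 7.78 kb at Myod1.

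In 4 windows a single 30 h peak spanned 2 proliferating peaks, at T, Sox17, Gata6 and Gata4. Of all 30 h peaks, 5.83% spanned 2 or more proliferating peaks, and of those in the strongest score group, where these 4 lie, 26.0% did. The gaps they closed were 2.21 kb at Sox17, 569 bp at Gata6, 400 bp at T and 27 bp at Gata4. The lower-scoring proliferating peak beside each gap had a score of 50.37, 110.7, 88.37 and 385.3 in the same order, and the last of these was in the strongest score group of its list.

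The reach of the 30 h peak past the proliferating peaks beneath it was uneven. At Sox17 it ran 0.514 kb past them on the low-coordinate side and 13.6 kb past them on the high-coordinate side. At Gata4 these were 0.293 kb and 6.45 kb, and at Gata6 1.31 kb and 3.96 kb. At T the sides were nearly even, with 4.11 kb and 3.55 kb. At Myod1 the 30 h peak ran 1.40 kb further on the low-coordinate side and stopped 136 bp short on the other. At Sox17, Gata4 and Myod1, 1 edge thus lay within 514 bp of its place in the other list.

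**Figure D4:**
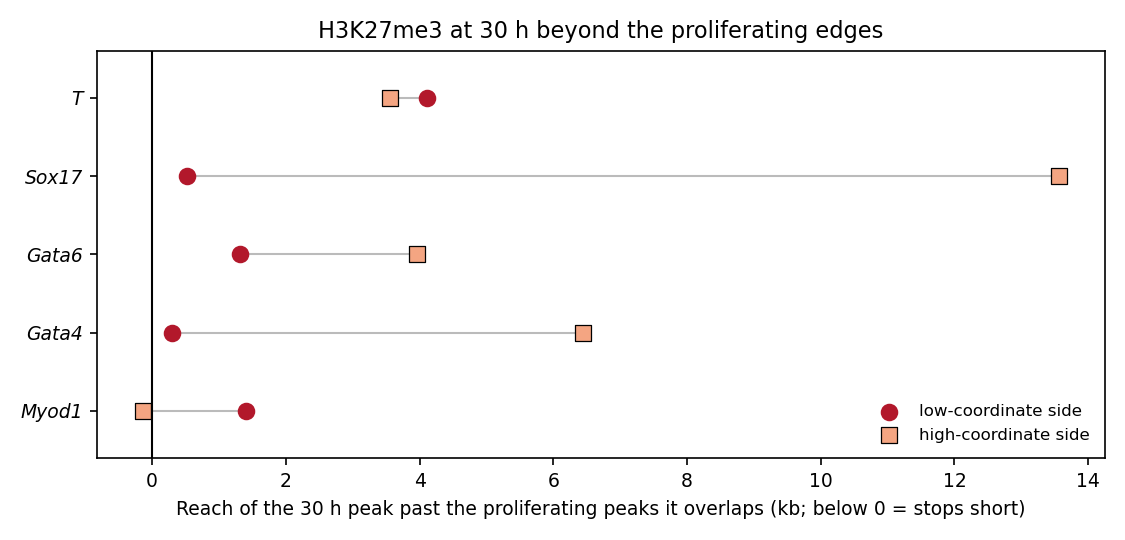
Reach of the main 30 h H3K27me3 peak past the outer edges of the proliferating peaks it overlaps (x axis, kb), by gene, on the low-coordinate side (circles) and the high-coordinate side (squares). The longest reach of a single peak is 13.6 kb at Sox17, and the high-coordinate edge of Myod1 lies 136 bp below 0. Nearby 30 h peaks that continue the main one are not counted.

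Peak by peak, the widest 30 h peak over each of the 5 main proliferating peaks was wider by a ratio of 2.45 at Sox17, 2.09 at T, 1.43 at Gata6, 1.30 at Gata4 and 1.21 at Myod1. For all proliferating peaks of the strongest score group that overlapped a 30 h peak, the 30 h peak was wider in 91.4%, the median ratio was 1.62 and the middle 50% of ratios ran from 1.20 to 2.56. All 5 ratios lay within that range.

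H3K4me3 and H3K27me3 met at T, Gata6 and Gata4. Of the 5 H3K4me3 peaks in the windows, 3 overlapped H3K27me3, and the same 3 did so at 30 h and in proliferating cultures, against 14.3% and 11.0% of the whole H3K4me3 list. The windows themselves were 58.5% inside H3K27me3 at 30 h and 36.1% in proliferating cultures, so much overlap comes with the choice of windows. Whether 3 of 5 exceeds this was not tested. Each of the 3 H3K4me3 peaks was covered over its whole length, and together they measured 4.05 kb. Their scores were 665.3, 220.1 and 64.3. In the H3K4me3 list overlap with proliferating H3K27me3 was most frequent at such scores, at 16.8% in the weakest of 5 score groups and 22.7% in the next. With the stronger 50% of each list none of the 3 H3K4me3 peaks was left, so that 0 H3K4me3 peaks over H3K27me3 remained in the windows. Of the 10 proliferating H3K27me3 peaks 3 overlapped H3K4me3, against 19.5% of that list, and of the 15 at 30 h 3 did, against 16.0%. All 3 proliferating ones were in the strongest score group, where 54.1% of peaks overlapped H3K4me3. H3K4me3 was measured in proliferating cultures only, and peaks that overlap need not come from the same cells or chromosomes.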

How the data were processed

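H3K27me3 and H3K4me3 ChIP-seq of SVZ NSC cultures was analysed from the authors' peak lists, each from 1 library. The inputs were left out. The submitters' processing notes name Bowtie2 and mm9. The paper's methods name MACS, without model and without lambda for H3K27me3. The sources used here give neither the MACS version nor its threshold, nor whether inputs were used. Each deposited list gives start, end and score per peak, the score being the authors' MACS value, from 50.01 (50.03 at 30 h) upwards. Coordinates are printed as deposited; whether starts count from 0 is not stated. Depth is unknown, since the lists hold no read counts.

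Peaks that overlapped a window by at least 1 bp were taken with Python 3.11.15, numpy 2.4.6 and pandas 2.3.3, and overlaps of whole lists were the same with bedtools 2.31.1. On simulated data 200 of 200 planted overlaps were recovered. Score groups are 5 equal parts of a list, ties ordered by width. Figures were drawn with matplotlib 3.10.9. All member peaks were described by rule. The genes, windows and settings were chosen with earlier results of these data known. The marker genes and further germ layer regulators planned were left out, since the RefSeq tables are of another build (GRCm38.p6) and served only for names, neighbours and the T promoter.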

Additional observations from a re-analysis of the deposited data

How the results depend on the processing

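The alternatives were the stronger 50% of each list, a 30 h list reduced to the number (9470) or the covered length (2196 peaks) of the proliferating one, peaks less than 3 kb apart merged, windows widened by 10 kb or narrowed by 5 kb, and at least 50% overlap. The last was run only on the number of peaks and on H3K4me3 over H3K27me3. In the others H3K27me3 was found in 5 of 5 windows in both lists. The difference in length inside H3K27me3, 30 h minus proliferating, stayed above 0 in each window and over all of them. Counts and lengths cannot change sign, so a reversal was possible for these differences only. With the stronger 50%, 1 H3K4me3 peak was left, in 1 window and over 3.26 kb (5 peaks, 3 windows and 8.17 kb before), and 0 overlapped H3K27me3 at 30 h or in proliferating cultures. At equal covered length 6 peaks were left at 30 h and the difference between 30 h and proliferating cultures was 29.3 kb. Merging left 9 peaks at 30 h and 6 in proliferating cultures. In widened windows H3K4me3 covered 15.6 kb. Of the comparisons for single windows, 11 shifted by more than 1.5 times or to or from 0, and 109 did not. These shifts follow from shorter lists, joined peaks or moved window ends. No paired analysis was possible because each group is 1 library. Unknown depth limits every comparison between lists.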

Other observations

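The surroundings of the windows differed between the genes. Within 200 kb on either side of the Gata6 window the 30 h list had no H3K27me3 peak, and on either side of Sox17 no further one beside the tail of its own peak. The proliferating list had 4 peaks around Gata6 and 1 around Sox17 in the same stretches, with scores of 136.4 or less and widths of 2.19 kb or less. In contrast, the flanks of Gata4, tails of its own peaks included, held 111.1 kb inside H3K27me3 at 30 h against 38.4 kb in proliferating cultures, and those of T 53.3 kb against 19.2 kb.

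At Myod1 the flanks were lopsided. On the low-coordinate side 59.4 kb of 200 kb lay inside H3K27me3 at 30 h, against 7.51 kb in proliferating cultures, while on the other side the values were 1.01 kb and 0 kb. The 13 further 30 h peaks on the low-coordinate side had a median score of 153.8, close to the median of the whole 30 h list, 154.8, and 3 of them overlapped a proliferating peak, a share not far from the 30.7% of the whole 30 h list. These flanks were described after the values of the windows were seen.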
